A study of Homo sapiens with 6 samples.

Results

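The 9 genes described here encode SOX transcription factors of neural crest and neuronal lineages: SOX2, SOX4, SOX11, SOX12, SOX5, SOX6, SOX8, SOX9 and SOX10. They were chosen by gene symbol, and all 9 were found among the 25370 rows of the deposited count table. RNA was measured in 6 libraries of human neuroblastoma lines, which were BE2C cells with forced LMO1 overexpression (2 libraries), BE2C cells carrying a vector control (2 libraries), Kelly cells (1 library) and parental BE2C cells (1 library). BE2C and Kelly are MYCN-amplified lines, and LMO1 encodes a LIM-domain co-regulator of transcription. The labels do not name the promoter that drove LMO1, nor whether the modified cells were clones or pools, nor whether replicate libraries were grown as separate cultures. The p-values below therefore cover only the variation among the 4 libraries tested, part or all of which may be technical.

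SOX proteins bind DNA through a shared domain, the HMG box, and are sorted into groups by its sequence. Neural crest cells give rise to the sympathetic neurons from which neuroblastoma derives, and also to Schwann cells, melanocytes and the cartilage of the face. SOX2, of group SoxB1, keeps neural progenitors undifferentiated. The SoxC genes SOX4, SOX11 and SOX12 act in newly formed neurons and in sympathetic ganglia, as shown in mouse. SoxE genes (SOX8, SOX9, SOX10) specify the crest and its glial and pigment derivatives, and the SoxD genes SOX5 and SOX6 work beside SOX9 in cartilage and modify the action of other SOX proteins.

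The HMG box is also where reads of different SOX genes could be confused, so its coding sequence is shown for the 3 SoxC genes, on which most of the results turn. The first 90 bases of the box are given 5′ to 3′ from the reference transcripts of GENCODE release 29 (GRCh38), and capitals mark the 18 positions at which the 3 genes are not all the same.
SOX11: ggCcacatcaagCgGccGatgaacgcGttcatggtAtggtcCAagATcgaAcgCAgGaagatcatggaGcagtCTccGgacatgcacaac
SOX4: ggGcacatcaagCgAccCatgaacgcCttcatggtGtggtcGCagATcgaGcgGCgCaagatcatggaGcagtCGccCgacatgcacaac
SOX12: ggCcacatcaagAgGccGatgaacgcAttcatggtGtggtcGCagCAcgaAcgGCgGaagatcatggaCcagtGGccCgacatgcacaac
Over the whole 237-base box, SOX4 and SOX11 were identical at 86.9% of bases, SOX11 and SOX12 at 85.2%, and SOX4 and SOX12 at 84.0%. The longest stretch shared exactly by any pair of the 9 genes, over the whole length of each gene's longest reference transcript, was 45 bases, between SOX9 and SOX10, and within SoxC it was 35 bases, between SOX11 and SOX12. Windows of 50 bases that also occur in a transcript of another gene made up at most 2.09% of any member's transcript (SOX4, shared with AL512380.2), and 0.288% for SOX11. No such window was shared between 2 of the 9 genes. SOX2 lies inside SOX2-OT, a long non-coding gene read from the same strand, so their reads can be told apart only by exon. SOX2-OT itself had 6 to 21 counts per library.

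Total counts ranged from 18737591 to 59512958 per library, and a count of 0 allows up to 3 counts, or 0.158 CPM (the count relative to the library size in the usual unit, scaled by the trimmed mean of M values, TMM) in the shallowest library. LMO1 was at 6.59 and 5.89 CPM in the LMO1 libraries, against 1.06 and 0.928 CPM in the vector libraries, which follows the labels (log2 fold change 2.65, SE 0.271, edgeR adjusted p = 3.46e-11), and reached 92.7 CPM in Kelly, against 1.91 CPM in parental BE2C. Sympathetic markers were present throughout: HAND2, a sympathetic transcription factor, ranged from 194 to 699 CPM and MYCN from 1568 to 2034 CPM. Haematopoietic markers summed to between 7.59 and 9.77 CPM in every library, most of it CD68, with 2 of 8 (CD3E, HBB) at 0 in all 6 libraries. Of the 14 fibroblast and endothelial markers, 4 rose and 4 fell among 11 tested, where 31.0% of all genes tested passed in either direction. ACTA2, a smooth muscle actin, fell to 26.4 ± 0.52 CPM in LMO1 libraries, against 98.1 ± 5.18 CPM in vector libraries (edgeR adjusted p = 1.12e-27). COL3A1, a collagen, fell to 7.27 ± 0.758 CPM in LMO1 libraries, against 25.3 ± 0.885 CPM in vector libraries (edgeR adjusted p = 8.31e-17). TAGLN, another smooth muscle gene, fell to 5.37 ± 0.388 CPM in LMO1 libraries, against 18.2 ± 1.01 CPM in vector libraries (SD, n = 2 each, edgeR adjusted p = 2.35e-14). The matrix genes DCN and LUM, named after their values were seen, rose by 0.84 and 1.06 on the log2 scale (edgeR adjusted p = 1.24e-10 and 2.14e-09). The summed level of the 14 was 323 to 327 CPM with LMO1 and 383 to 385 CPM with vector, of which THY1 gave 182 ± 4.36 CPM in LMO1 libraries, against 160.3 ± 0.748 CPM in vector libraries. Their part in the SOX differences was not tested. In bulk RNA, fewer cells expressing a gene and less of its RNA per cell cannot be told apart.

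**Figure D1:**
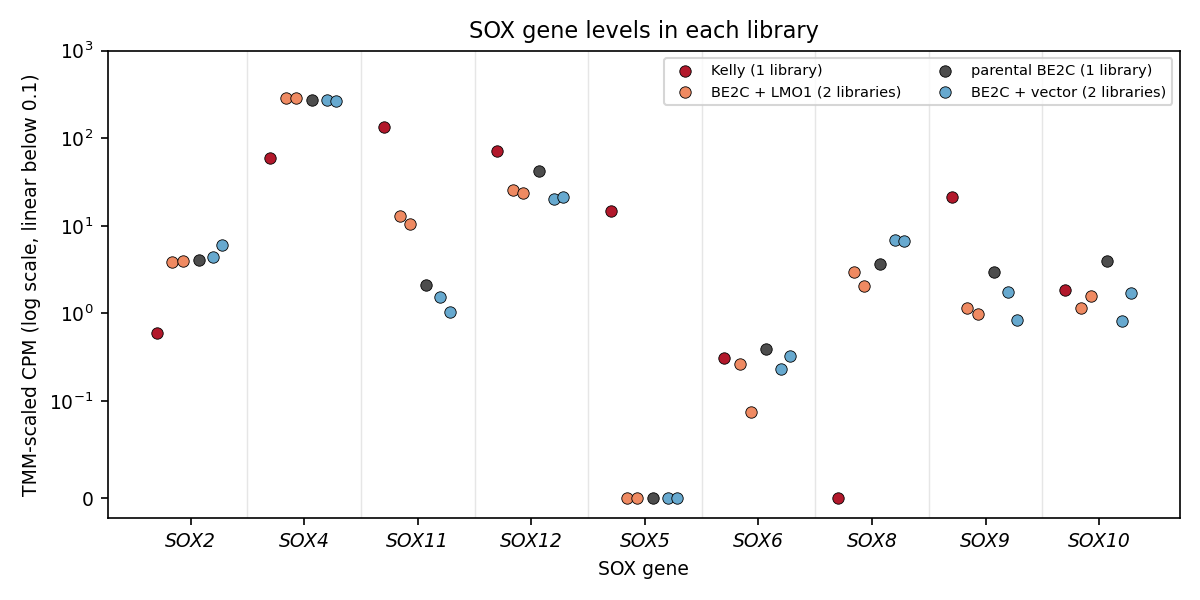
Levels of the 9 SOX genes in each library. Each point is 1 library, in TMM-scaled CPM on a log axis that is linear below 0.1, with genes along the horizontal axis and groups in the order Kelly, LMO1, parental BE2C, vector. SOX11 is highest in Kelly at 135 CPM and next in the LMO1 libraries, SOX5 has reads in Kelly only, and SOX8 has none in Kelly.

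The first comparison asked which SOX genes differed between BE2C cells with forced LMO1 and BE2C cells with vector. SOX11 rose about 9-fold, SOX4 and SOX12 rose by less than 1.2-fold, SOX8 fell to 0.365 of its vector level, and the others did not pass the test. Thus 4 of the 7 SOX genes tested passed at an edgeR adjusted p below 0.05, 3 higher and 1 lower. Of all 15480 genes tested, the 31.0% that passed were 15.9% higher and 15.1% lower. SOX5 and SOX6 were not tested, because their counts were too low in these 4 libraries for the expression filter. With so few genes, the share of SOX genes that passed cannot be set apart from that background.

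Among the SoxC genes, SOX11 is a regulator of sympathetic neuron formation in mouse embryos and belongs to the adrenergic transcription factors of neuroblastoma. It had 12.8 and 10.5 CPM in the LMO1 libraries (243 and 237 counts), against 1.52 and 1.05 CPM in the vector libraries (33 and 26 counts). Both LMO1 libraries lay far above both vector libraries. The means were 11.7 ± 1.64 CPM with LMO1 and 1.29 ± 0.336 CPM with vector (SD, n = 2 each), a log2 fold change of 3.19 (SE 0.22, 9.12-fold, edgeR adjusted p = 1.37e-16). SOX11 passed the test under all 12 alternatives, with log2 fold changes from 2.93 to 3.46. Of all genes tested, 5.02% passed with a change of at least 2-fold.

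SOX4, which acts with SOX11 in early neurons, was the most abundant SOX transcript of BE2C cells. It had 288 and 289.9 CPM with LMO1, against 271 and 268 CPM with vector. The groups did not overlap, and the difference was small, with a log2 fold change of 0.11 (SE 0.0327, edgeR adjusted p = 0.00982). SOX12, the weakest activator of the SoxC group in mouse, had 25.5 and 23.8 CPM with LMO1 and 20.1 and 21.3 CPM with vector. The groups again did not overlap (log2 fold change 0.25, SE 0.0965, edgeR adjusted p = 0.0412). Neither call was stable. SOX4 missed the threshold with DESeq2 (DESeq2 adjusted p = 0.0522) and without vector replicate 1 or vector replicate 2 (edgeR adjusted p = 0.0658 and 0.106). SOX12 missed it with DESeq2 (DESeq2 adjusted p = 0.176) and whenever any of the 4 libraries was left out (edgeR adjusted p from 0.0556 to 0.216), although both genes stayed above 0 on the log2 scale throughout.

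SOX8, the SoxE gene that partly backs up SOX9 and SOX10 in mouse, was the SOX gene that fell. It had 2.95 and 2.04 CPM in the LMO1 libraries (56 and 46 counts), against 6.93 and 6.66 CPM in the vector libraries (150 and 165 counts). Both LMO1 libraries were well below both vector libraries. The means were 2.49 ± 0.647 CPM with LMO1 and 6.79 ± 0.189 CPM with vector (SD, n = 2 each), a log2 fold change of -1.45 (SE 0.222, edgeR adjusted p = 7.74e-07). SOX8 passed under all 12 alternatives, from -1.73 to -1.19.

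The other SoxE genes gave no call. SOX9, needed for early crest formation and for cartilage, had 1.16 and 0.974 CPM with LMO1 and 1.75 and 0.848 CPM with vector, so the LMO1 values lay inside the vector range. The fitted log2 fold change of -0.27 (SE 0.43) did not pass (edgeR adjusted p = 0.689), and it ran from -0.71 to 0.33 over the alternatives. SOX10, the master regulator of crest-derived glia and melanocytes, had 1.16 and 1.59 CPM with LMO1 and 0.831 and 1.70 CPM with vector, overlapping groups with a log2 fold change of 0.12 (SE 0.401, edgeR adjusted p = 0.855). At 18 to 42 counts per library, even a 2-fold change in SOX9 or SOX10 could have been missed, given standard errors of 0.43 and 0.401. SOX2 had 3.85 and 3.94 CPM with LMO1 and 4.39 and 6.05 CPM with vector. The groups did not overlap, but the vector libraries differed more from each other than either LMO1 library did from the nearer of them, and the log2 fold change of -0.42 (SE 0.214) did not pass (edgeR adjusted p = 0.133). SOX6 had 5 and 2 counts with LMO1 and 5 and 8 counts with vector, and SOX5 had none in these 4 libraries.

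**Figure D2:**
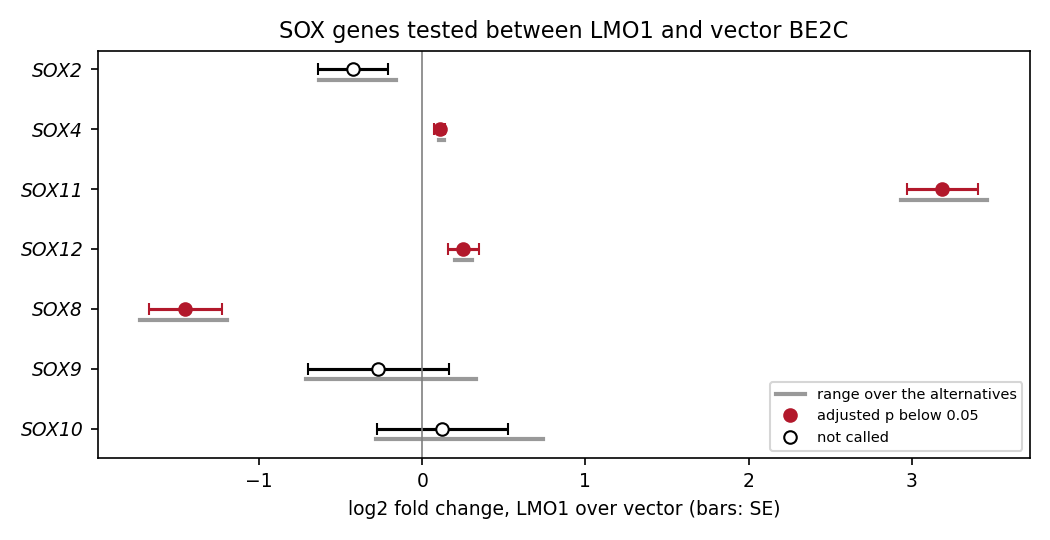
Log2 fold changes of the 7 SOX genes tested, LMO1 over vector, with the standard error as bars and the range over all alternatives as a grey line. SOX11 stands at 3.19 and SOX8 at -1.45, while SOX4 (0.11) and SOX12 (0.25) passed at small sizes and SOX2, SOX9 and SOX10 did not pass.

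The rest of the SOX family was read in the same way. Of 11 other SOX and SRY genes, 5 had no read in any library and 4 were tested. Of all genes tested 31.0% passed, and of these 4, too few to set apart from that share, 1 passed. It was SOX18, a SoxF gene of blood vessel development, at 7.22 and 5.53 CPM with LMO1 and 8.68 and 10.7 CPM with vector (log2 fold change -0.61, SE 0.165, edgeR adjusted p = 0.00352). It missed the threshold without LMO1 replicate 2 or vector replicate 2 (edgeR adjusted p = 0.115 and 0.122). SOX7, also SoxF, had 13.0 ± 0.719 CPM in LMO1 libraries, against 10.8 ± 0.0403 CPM in vector libraries, and did not pass (n = 2 each, edgeR adjusted p = 0.108). SOX13, a SoxD gene, had 4.40 ± 0.643 CPM in LMO1 libraries and 4.12 ± 0.796 CPM in vector libraries (edgeR adjusted p = 0.813). SOX15 had 0.882 ± 0.13 CPM in LMO1 libraries and 0.554 ± 0.327 CPM in vector libraries (edgeR adjusted p = 0.326).

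The second comparison set Kelly, which expresses far more LMO1, against parental BE2C. Each side had a single library, so there is no test, and intervals cover counting error only. Kelly and parental BE2C differed at least 2-fold in 7 of the 8 SOX genes that reached 1 CPM on either side, with 3 higher and 4 lower in Kelly. Among all 14977 genes of at least 1 CPM, 35.0% differed that much, 18.7% higher and 16.3% lower.

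SOX11 reached 135 CPM in Kelly (8179 counts), against 2.10 CPM in parental BE2C (101 counts), a 64.4-fold ratio (95% interval 53.0 to 79.2). Kelly also stood 11.6-fold above the mean of the LMO1 libraries. SOX9 reached 21.4 CPM in Kelly, against 2.97 CPM in parental BE2C, 7.21-fold higher (6.06 to 8.63). SOX9-AS1, a transcript on the opposite strand beside SOX9, had 41 counts in Kelly and 3 in parental BE2C. SOX5 had 899 counts in Kelly, or 14.9 CPM, and 0 in parental BE2C and in the other BE2C libraries. Against a floor of 3 counts in the parental library it was at least 238-fold higher in Kelly. SOX12 had 71.0 CPM in Kelly, against 42.5 CPM in parental BE2C (1.67-fold, 1.59 to 1.76), below the 2-fold mark.

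The SOX genes that were lower in Kelly included the dominant one of BE2C. SOX4 had 58.9 CPM in Kelly, against 272 CPM in parental BE2C, a ratio of 0.217 (0.209 to 0.225). SOX2 had 0.595 CPM in Kelly, against 4.13 CPM in parental BE2C, a ratio of 0.144 (0.098 to 0.206). SOX10 had 1.85 CPM in Kelly, against 3.93 CPM in parental BE2C, a ratio of 0.471 (0.37 to 0.599). SOX8 had 0 counts in Kelly and 176 in parental BE2C, at least 73.7-fold lower against a floor of 3 counts. SOX6 had 19 counts in each library, which is 0.314 CPM in Kelly against 0.395 CPM in parental BE2C, a difference within counting error. All of these Kelly values except those of SOX6 and SOX10 lay outside the range of the 5 BE2C libraries. The non-coding genes CASC15 and CASC14, which adjoin SOX4 on chromosome 6, also had lower levels in Kelly. CASC15 had 0.777 CPM in Kelly, against 1.58 CPM in parental BE2C, and CASC14 had 5.06 CPM in Kelly, against 9.37 CPM in parental BE2C.

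**Figure D3:**
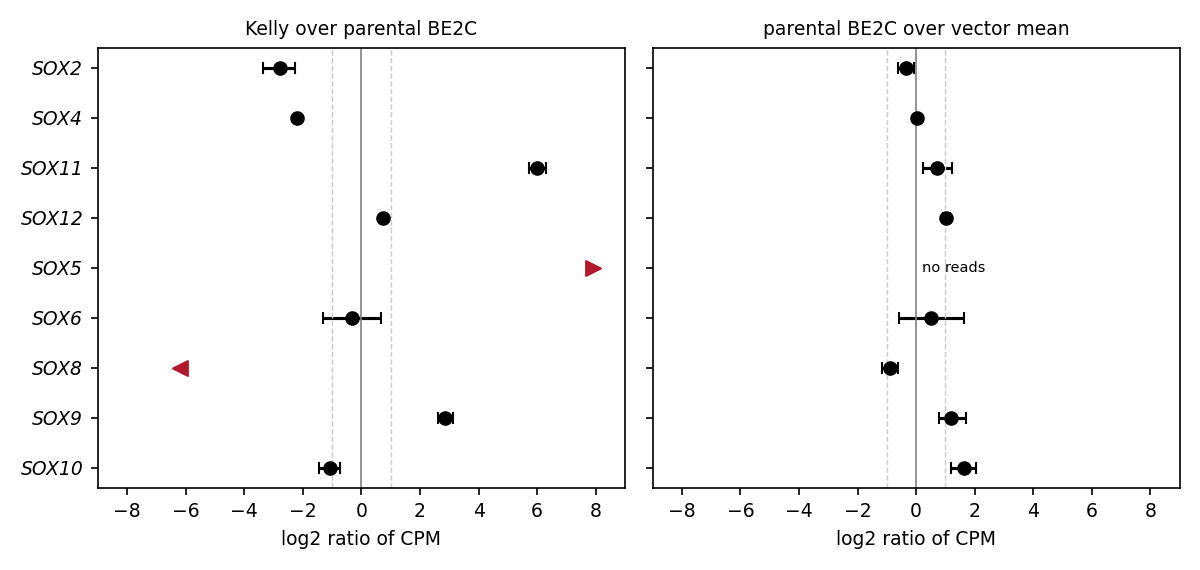
Log2 ratios of CPM for Kelly over parental BE2C (left) and for parental BE2C over the mean of the vector libraries (right), with 95% counting intervals. Triangles are bounds against a floor of 3 counts, and dashed lines mark 2-fold. The Kelly ratios of SOX11 (6.01) and SOX9 (2.85) lie above 0, those of SOX2 (-2.80) and SOX4 (-2.20) below it, and the parental ratios lie between -0.89 and 1.64.

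The LMO1 libraries and the Kelly library were compared with different controls, so the values can be set side by side without a shared library. SOX11 and SOX12 were higher and SOX8 was lower both in LMO1 against vector and in Kelly against parental BE2C. SOX12 stayed below 2-fold in both (log2 0.25 and 0.74), and its call between LMO1 and vector was not stable. SOX2, which did not pass between LMO1 and vector, had log2 values of -0.42 and -2.80. SOX4 went opposite ways, with a log2 value of 0.11 in LMO1 against vector and -2.20 in Kelly against parental BE2C. SOX9, which did not pass between LMO1 and vector, was 7.21-fold higher in Kelly. The genotype and all other differences between the lines cannot be told apart with 1 Kelly library.

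Parental BE2C cells showed how far unmodified cells lay from the vector control. SOX4 was at 272 CPM in parental BE2C and 269 ± 1.84 CPM with vector (SD, n = 2), a ratio of 1.01. SOX10 was at 3.93 CPM in parental BE2C and 1.26 ± 0.611 CPM with vector, 3.11-fold higher. SOX9 was at 2.97 CPM in parental BE2C and 1.30 ± 0.641 CPM with vector (2.28-fold), and SOX12 at 42.5 CPM and 20.7 ± 0.86 CPM (2.05-fold). These were the 3 of 7 SOX genes with at least 1 CPM that differed 2-fold or more, all of them higher, where 16.1% of 14369 genes did, 11.0% higher and 5.09% lower. The marks for SOX9 and SOX12 each rested on 1 vector library. SOX9 fell short of 2-fold without vector replicate 2 (log2 ratio 0.76) and SOX12 without vector replicate 1 (log2 ratio 0.99), so either way 2 genes were left past the mark. NRSN2, the gene next to SOX12, was likewise 2.34-fold higher in the parental library. SOX8 was at 3.66 CPM in parental BE2C, between the LMO1 and the vector libraries. Its LMO1 mean was 0.682 of the parental level, and the parental level was 0.538 of the vector mean. SOX11 was at 2.10 CPM, above both vector libraries and 5.55-fold below the LMO1 mean. SOX12 in the LMO1 libraries was lower than in parental BE2C, at 24.7 ± 1.20 CPM against 42.5 CPM. Parental and modified libraries were labelled and described separately, and preparation and modification cannot be told apart.

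Levels of different genes were compared per kb of transcript, as CPM divided by the median length of the gene's protein-coding transcripts in GENCODE. In the LMO1 libraries SOX4 came first at 49.4 ± 0.267 CPM per kb, followed by SOX12 at 5.33 ± 0.258, SOX2 at 1.55 ± 0.026 and SOX11 at 1.34 ± 0.188 CPM per kb (SD, n = 2 each). SOX8 (0.818 ± 0.212) and SOX10 (0.696 ± 0.155) came next with overlapping ranges, then SOX9 (0.272 ± 0.0334) and SOX6 (0.0658 ± 0.0462 CPM per kb). In the vector libraries SOX4 (46.0 ± 0.315) and SOX12 (4.48 ± 0.186) led again, and SOX8 (2.23 ± 0.062) and SOX2 (2.08 ± 0.469 CPM per kb) overlapped below them. SOX10 (0.639 ± 0.309) and SOX9 (0.331 ± 0.163 CPM per kb) overlapped, and SOX11 was near the bottom at 0.148 ± 0.0385 CPM per kb, overlapping SOX6 at 0.103 ± 0.0243. SOX11 thus ranked in place 4 of the 9 genes in both LMO1 libraries and in places 7 and 8 in the vector libraries. Parental BE2C placed SOX4 (46.4), SOX12 (9.18) and SOX10 (1.98 CPM per kb) first. Neighbouring places depended on the length used. With the longest transcript of each gene, SOX2 stood above SOX10 in parental BE2C, at 2.70% and 2.24% of the sum over the 9 genes. SOX8 (1.63 and 1.13%) then lay above SOX10 (0.678 and 0.939%) in the LMO1 libraries without overlap. SOX11 (0.315 and 0.215%) likewise lay above SOX6 (0.0469 and 0.0651%) in both vector libraries.

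Kelly had another order. SOX11 and SOX12 were level at 15.5 and 15.3 CPM per kb, SOX4 followed at 10.1, and SOX5 and SOX9 stood at 6.28 and 5.45 CPM per kb. The sum over the 9 genes moved little, from 53.9 CPM per kb in Kelly, through 59.4 ± 0.29 with LMO1 and 61.6 in parental BE2C, to 56.0 ± 0.409 with vector (n = 2 for LMO1 and vector), while its make-up differed between the lines. SOX4 supplied 18.7% of the sum in Kelly, 83.1% ± 0.855 with LMO1, 75.4% in parental BE2C and 82.1% ± 1.16 with vector. SOX11 supplied 28.7% in Kelly, 2.25% ± 0.305 with LMO1, 0.391% in parental BE2C and 0.264% ± 0.0706 with vector. SoxE genes together gave 11.8% in Kelly, 3.01% ± 0.138 with LMO1, 6.40% in parental BE2C and 5.71% ± 0.107 with vector. The LMO1 and vector values of the SoxE share did not overlap, but an exact two-sided permutation test on 2 against 2 libraries cannot give a p below 0.333, so none was run. SOX5 has 13 coding transcripts of very different length, and its share in Kelly was 11.6%, or 4.31% with the longest transcript, which put it below SOX9 at 11.0%.

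**Figure D4:**
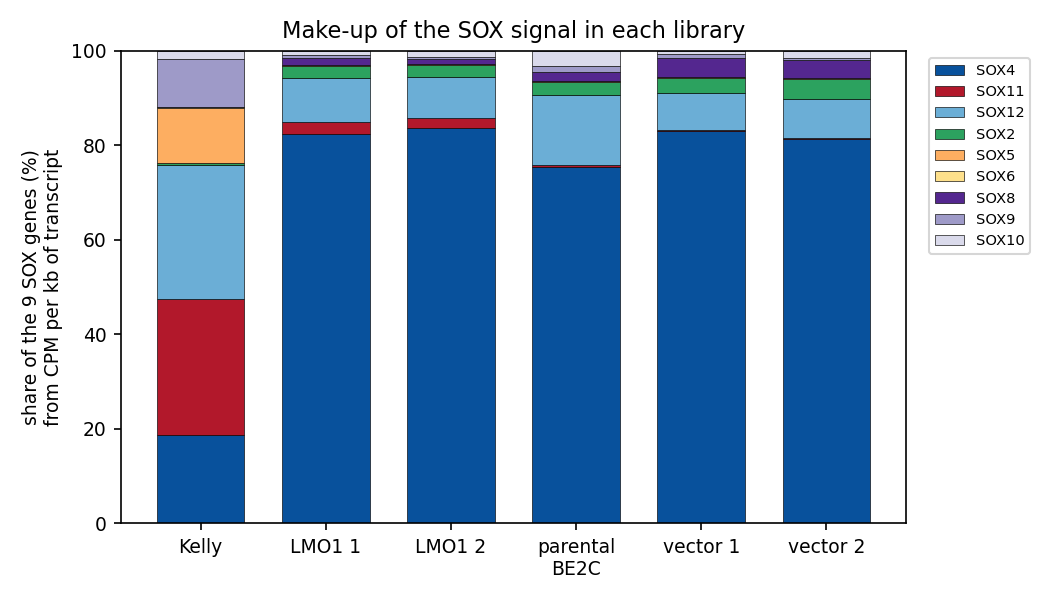
Share of each SOX gene in the sum over the 9 genes, in percent of CPM per kb of transcript, for each library. SOX4 takes 75.4 to 83.7% in the 5 BE2C libraries and 18.7% in Kelly, where SOX11 and SOX12 take 28.7% and 28.4%.

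For each of the 7 SOX genes tested between LMO1 and vector, all of which reached 1 CPM in some library, the 3 genes with the most similar profile were found by the Euclidean distance of centred log2(CPM + 1) values over the 6 libraries, among 15648 other genes. SOX5 and SOX6, which were not tested, were left out. Libraries of 1 line share their source, so these distances are a description. The gene closest to SOX11 was LMO1 itself (distance 0.74), followed by DBH, the enzyme that makes noradrenaline (0.807), and TBC1D30 (1.27), against a length of 5.11 for the SOX11 profile. DBH averaged 84.9 ± 7.79 CPM with LMO1 and 14.2 ± 1.08 CPM with vector (SD, n = 2 each), and 860 CPM in Kelly against 35.1 CPM in parental BE2C. The genes closest to SOX8 were ATOH8, ANO4 and TBX2 (0.446 to 0.589), and TBX2, an adrenergic transcription factor, had 187 and 189 CPM with LMO1, against 308 and 304 CPM with vector. SOX9 was closest to IGF2BP1, POU3F2 and VWCE (0.444 to 0.479), SOX4 to PLOD3, LRP11 and CKS2 (0.0929 to 0.132), SOX2 to MEPCE, ICAM2 and SLC46A3 (0.141 to 0.277), SOX12 to GAA, FAM199X and ZNF652 (0.134 to 0.138) and SOX10 to KANTR, ELMSAN1 and UCP3 (0.306 to 0.378).

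Genes that act with or downstream of these factors were read from lists of markers and targets. Each list is described by its counts in LMO1 against vector and its median, beside a median log2 fold change of 0.000832 over all genes tested, of which 15.9% were higher and 15.1% lower. Pan-neuronal genes, which include targets of SOX4 and SOX11 in embryonic neurons, rose in 9 and fell in 2 of 19 cases, with a median of 0.12, and 1 fell without vector replicate 1. STMN2, a tubulin-binding growth cone protein, rose to 493 ± 5.02 CPM with LMO1 against 363 ± 8.47 CPM with vector (n = 2 each, log2 0.45, edgeR adjusted p = 4.01e-17). ELAVL2, a neuronal RNA-binding protein, rose by 1.65 on the log2 scale (SE 0.16, edgeR adjusted p = 7.82e-12). DCX, a microtubule protein of migrating neurons, rose by 0.33 (SE 0.0331, edgeR adjusted p = 1.76e-11). The 2 that fell, named after their values were seen, were STMN1 (log2 -0.20, edgeR adjusted p = 1.15e-07) and CRMP1 (log2 -0.14, edgeR adjusted p = 0.00508).

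Neural crest transcription factors rose in 5 and fell in 2 of 13 cases, with a median of 0.03, and 1 fell without LMO1 replicate 1. TFAP2C had 70 and 76 counts with LMO1 and 2 and 6 counts with vector (log2 4.32, SE 0.466, edgeR adjusted p = 1.34e-10). TFAP2B, which acts in sympathetic precursors in mouse, rose to 81.2 ± 1.28 CPM with LMO1, against 58.6 ± 1.34 CPM with vector (n = 2 each, edgeR adjusted p = 3.51e-09), and ETS1 to 64.9 ± 0.525 CPM against 50.3 ± 2.01 CPM (edgeR adjusted p = 5.91e-06). Adrenergic transcription factors fell in 6 and rose in 2 of 12 cases (median -0.10), with TBX2 at a log2 value of -0.70 and ISL1 at 0.27. The count higher was 1 with DESeq2 and without the low-count filter, and it also changed when some single libraries were left out.

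Glial and melanocytic genes, among them targets of SOX10, rose in 3 and fell in 2 of 10 cases, with a median of -0.04. The count lower was 1 in 10 of 12 alternatives, among them DESeq2 and each library left out. The less certain of the 2 was POU3F1, named after its values were seen (log2 -1.25, SE 0.496, edgeR adjusted p = 0.0465). NGFR, a neurotrophin receptor of crest cells and immature Schwann cells, had 10.6 and 13.1 CPM with LMO1, against 3.37 and 3.75 CPM with vector (log2 1.74, SE 0.173, edgeR adjusted p = 1.89e-11). PMP22, a peripheral myelin gene, rose by 0.26 (SE 0.0432, edgeR adjusted p = 2.97e-06) and MITF, the melanocyte regulator, had a log2 value of -0.53 (SE 0.128, edgeR adjusted p = 0.00113). The summed level of the 21 genes was 177 to 181 CPM with LMO1 and 147 to 155 CPM with vector, most of it PMP22, and GJB1, CDH19 and TYR had no read in any library.

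Cartilage genes rose in 1 and fell in 1 of 6 cases (median 0.05). SCRG1 had 9.70 and 7.26 CPM with LMO1 and 5.86 and 4.80 CPM with vector (log2 0.67, edgeR adjusted p = 0.00285). It missed the threshold without LMO1 replicate 1 or vector replicate 2 (edgeR adjusted p = 0.119 and 0.0642), which left no cartilage gene higher. COL11A2 averaged 2.45 ± 0.336 CPM with LMO1 and 5.64 ± 0.506 CPM with vector (n = 2 each, log2 -1.20, edgeR adjusted p = 4.47e-05). In Kelly, where SOX9 and SOX5 were high, the 16 cartilage genes summed to 117 CPM, against 44.6 CPM in parental BE2C. Most of that difference was SCRG1, at 52.6 CPM in Kelly against 8.48 CPM in parental BE2C. COL2A1, the classical cartilage target of SOX9, was chosen here after its values were seen and had 7.52 CPM in Kelly, against 0.125 CPM in parental BE2C. ACAN, another such target, had 0.0165 CPM in Kelly and 0 in parental BE2C. Neural progenitor genes rose in 4 and fell in 1 of 14 cases (median 0.16), with POU3F3 up by 0.64 (SE 0.158, edgeR adjusted p = 0.00134), NES by 0.12 (edgeR adjusted p = 0.0144) and SALL4 at 2.36 ± 0.0506 CPM with LMO1 against 1.18 ± 0.0398 CPM with vector (n = 2 each, edgeR adjusted p = 0.0215). The count higher was 1 with DESeq2 and 1 to 2 with any library left out. SALL4 missed the threshold with DESeq2 (DESeq2 adjusted p = 0.115) and with each of the 4 libraries left out (edgeR adjusted p from 0.0692 to 0.0985). NES missed it with DESeq2 (DESeq2 adjusted p = 0.0853) and with any library other than LMO1 replicate 1 left out (edgeR adjusted p from 0.0723 to 0.094). The gene called lower was not called with DESeq2 or without either vector library.

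**Figure D5:**
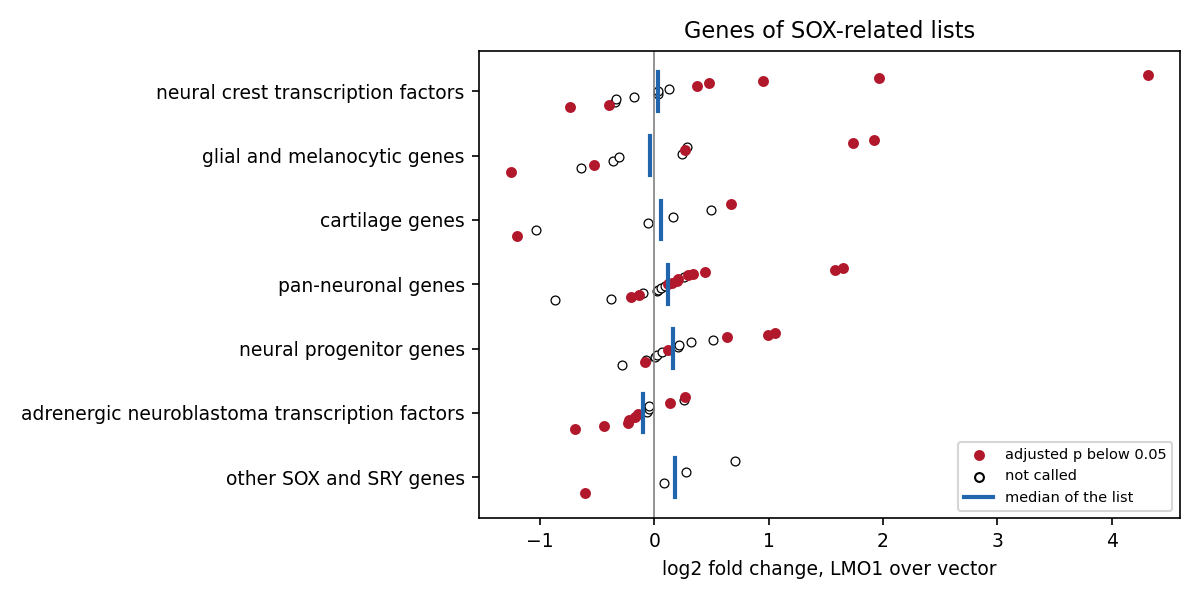
Log2 fold changes, LMO1 over vector, of the tested genes in 7 lists. Each point is 1 gene, filled where the edgeR adjusted p was below 0.05, and the blue bar is the median of the list. Medians lie between -0.10 and 0.18, and the pan-neuronal list holds 9 filled points above 0 and 2 below.

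Transcripts that overlap or adjoin some of the 9 genes were also read. Their tests do not show whether reads of the SOX genes were assigned correctly, and no neighbour of SOX8 was read. Between LMO1 and vector, the edgeR adjusted p was 0.962 for POLR2F beside SOX10, 0.682 for CASC15 and 0.749 for CASC14 beside SOX4, and 0.428 for NRSN2 beside SOX12. LOC400940, a non-coding gene near SOX11, was not tested. It had 13 and 8 counts with LMO1 and 7 and 11 counts with vector, and 86 counts in Kelly against 25 in parental BE2C.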

How the data were processed

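The deposited values were raw read counts, whole numbers per gene symbol, for 6 libraries. The submitters' processing notes name TopHat2 2.0.6, HTSeq and hg19. Annotation, strand setting and filters are not given in the sources used here, so reads of overlapping genes may have been split in ways that cannot be followed. The kit was a stranded total RNA kit, per the labels' protocols. The reference here was GRCh38 (GENCODE release 29), so no gene coordinates are given, and it supplied transcript lengths (22653 symbols matched) and sequences only.

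LMO1 and vector libraries were compared in edgeR 4.0.16 (R 4.3.3) with TMM scaling, filterByExpr (15480 genes kept, 9890 removed), the quasi-likelihood F test and Benjamini-Hochberg adjustment over all genes tested. CPM values are TMM-scaled over 6 libraries, and profile distances used log2(CPM + 1). Replicate counts were further apart than sampling noise (the chi-square over its degrees of freedom was 2.84 in LMO1 and 2.70 in vector libraries). Each library was counted separately in the test, but this spread does not show whether replicates came from separate cultures. Single-library ratios carry exact 95% counting intervals. Reads had no molecular identifiers, so intervals and floors cover counting error only. Alternatives included limma-voom (limma 3.58.1), DESeq2 1.42.0, other scalings and filters, and each library left out. The test was also run on simulated counts with the same spread for every gene and independent libraries. That setting cannot show how the test behaves when spread differs between genes or replicates are technical.

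Genes named were all 9 members, other SOX genes with at least 1 CPM in a library or called, LMO1, up to 3 called genes per list, taken by lowest adjusted p, and the 3 closest profiles per gene; some values under this rule are not reported here. Members and lists were chosen with earlier results of these data known.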

Additional observations from a re-analysis of the deposited data

How the results depend on the processing

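SOX11 and SOX8 kept their direction and their call in all 12 alternatives, while SOX2, SOX9 and SOX10 were not called in any of the 11 that tested them. The count of SOX genes called was 2 with DESeq2 in place of 4, with 1 called higher in place of 3, and 2 to 3 with 1 library left out, with 1 to 2 called higher. DESeq2 called 2970 genes in place of 4797, 1539 higher and 1431 lower. The cause was not tested. With the replicate number as a replicate block, the count of SOX genes called stayed at 4 and all genes called came to 4847. Deviations of libraries with the same replicate number were not correlated over all genes tested (correlation -0.0211), and the block changed no call of a SOX gene. A pairing that touches few genes would not show in this correlation, so it cannot decide whether the libraries were paired. With the longest transcript as the length, the SoxC share was 94.7% with LMO1, 91.8% in parental BE2C and 82.8% in Kelly, in place of 94.3%, 90.7% and 75.9%. Without vector replicate 1 the parental ratio of SOX9 was 1.81 on the log2 scale, and without vector replicate 2 it was 0.76 and that of SOX10 was 2.24, against 1.19 for SOX9 and 1.64 for SOX10. Low counts limit SOX6, SOX9 and SOX10.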
